A study of Homo sapiens with 6 samples.

Results

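Metallothionein genes, together with MTF1 and SLC30A1, were followed in MDA-MB-231 cells and were chosen by gene symbol through the NCBI Gene IDs of the files. All 9 genes were found among the 16623 genes listed, and 0 were absent. They are 7 metallothioneins (MT1A, MT1E, MT1F, MT1G, MT1M, MT1X and MT2A), the transcription factor MTF1 and the zinc exporter SLC30A1. MDA-MB-231 is a human triple-negative breast cancer cell line, and PCI-24781 is an inhibitor of histone deacetylases (HDACs). The cells were given 100 nM or 200 nM PCI-24781, or the solvent DMSO as control, and were collected at 24 h or 48 h while attached in culture, all in medium with fetal bovine serum. Each of these 6 conditions has 1 library, so differences could not be set against a spread between replicates and no p-value is given.

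Metallothioneins are small proteins rich in cysteine that bind zinc and copper and can also hold cadmium. When zinc rises in the cell, MTF1 enters the nucleus and binds metal response elements in the promoters of metallothionein genes and of SLC30A1, whose product ZNT1 moves zinc out across the plasma membrane. Glucocorticoids and oxidative stress are other known inducers of the family.

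The similarity of the family matters for how reads are assigned, so the coding sequences of the 3 abundant metallothioneins are shown first. They come from GENCODE release 29 on GRCh38, and each is the whole 186-base coding sequence with its stop codon, on the plus strand of chromosome 16. Capitals mark the 22 positions at which the 3 sequences are not all the same.
MT2A, chr16:56608656-56609354: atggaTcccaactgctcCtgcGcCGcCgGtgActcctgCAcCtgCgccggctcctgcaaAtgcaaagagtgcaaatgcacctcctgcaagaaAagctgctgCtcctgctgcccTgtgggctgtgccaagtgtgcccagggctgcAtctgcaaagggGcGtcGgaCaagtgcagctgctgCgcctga
MT1E, chr16:56625852-56626971: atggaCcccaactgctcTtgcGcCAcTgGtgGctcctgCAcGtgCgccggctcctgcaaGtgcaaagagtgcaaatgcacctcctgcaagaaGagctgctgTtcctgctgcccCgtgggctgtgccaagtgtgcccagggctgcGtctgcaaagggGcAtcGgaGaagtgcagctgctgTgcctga
MT1X, chr16:56682541-56684049: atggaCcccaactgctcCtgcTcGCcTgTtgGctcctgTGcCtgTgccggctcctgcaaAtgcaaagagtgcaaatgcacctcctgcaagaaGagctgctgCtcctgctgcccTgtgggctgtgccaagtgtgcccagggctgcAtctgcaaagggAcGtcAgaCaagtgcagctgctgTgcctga
Each of these spans 3 exons and encodes 61 amino acids, and 20 of its codons, 32.8%, are cysteine codons. MT2A and MT1E differed at 14 positions (92.5% identity), MT2A and MT1X at 14 (92.5%) and MT1E and MT1X at 17 (90.9%). Over the whole transcript, 64 of the 401 windows of 50 bases (16%) of MT1X were also present in the transcript of another metallothionein, against 5.34% for MT1E and 2.17% for MT2A. The share was 20.2% for MT1G, 7.05% for MT1M, 5.76% for MT1A and 3.59% for MT1F. The search took in metallothionein genes and pseudogenes that are not among the genes listed, so the share among listed genes may be smaller. The values of single metallothioneins are therefore uncertain to the extent that fragments were divided among copies, and their sum is given beside them.

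For MT2A and MT1X, the sequence from 250 bases before the RefSeq start to that start is shown because MT2A was level in these libraries and MT1X was not, and both sequences carry the core of the metal response element. The core was searched as TGCACNC or TGCGCNC on both strands, where N is any base and overlapping matches count separately. Capitals mark the matches in the plus strand of GRCh38.p14.
MT2A, chr16:56608334-56608583: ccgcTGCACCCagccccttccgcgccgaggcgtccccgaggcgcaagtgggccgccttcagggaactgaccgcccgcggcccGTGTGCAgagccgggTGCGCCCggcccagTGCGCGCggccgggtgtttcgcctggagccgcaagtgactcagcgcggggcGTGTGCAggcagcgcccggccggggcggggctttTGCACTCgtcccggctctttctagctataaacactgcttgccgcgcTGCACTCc
MT1X, chr16:56682220-56682469: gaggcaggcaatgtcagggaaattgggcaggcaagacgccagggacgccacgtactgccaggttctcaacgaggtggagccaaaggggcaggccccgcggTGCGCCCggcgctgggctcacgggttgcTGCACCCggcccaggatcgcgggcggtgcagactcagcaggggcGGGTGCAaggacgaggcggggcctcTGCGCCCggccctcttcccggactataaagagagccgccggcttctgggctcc
The MT2A sequence holds 7 matches and that of MT1X holds 4, with no match overlapping another. The windows of SLC30A1 and MTF1 hold 1 and 0 matches. Of 35116 RefSeq windows of the same length, 24.8% hold 1 or more matches, 0.370% hold 4 or more and 0.0313% hold 7 or more. A match describes the letters only and is not a measured binding site. The table of upstream sequences held 4 of the 9 genes, and MT1A, MT1E, MT1F, MT1G and MT1M are named only.

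The unit is FPKM, the number of fragments scaled by transcript length and by library size, which allows levels to be compared between genes. The files give no counts. Low values of short genes with 1 transcript come in steps worth 1 fragment, and from these the depth was put at between 15660000 and 17980000 fragments per library. At that depth, 3 fragments on a transcript of 400 bases correspond to an FPKM between 0.417 and 0.479. Changes are given as the difference in log2(FPKM + 1), which understates those of genes with low levels, and a gene was called higher or lower at 2-fold or more if its level reached 1 FPKM in at least 1 of both libraries. VIM was between 1629.38 and 2053.39 FPKM, and ESR1 and PGR, the hormone receptor genes this cell line lacks, were at or below 0.04. Of the other genes listed as low in this line, CDH1 did not exceed 0.39, GATA3 1.03 and EPCAM 4.70, while ERBB2 ranged from 13.16 to 21.36. Of 9 marker genes of immune, endothelial and stromal cells, 3 (CD68, COL1A1 and ACTA2) were at 1 FPKM or more in every library. In bulk RNA, fewer cells of a kind and less RNA per cell cannot be told apart.

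MT2A, which encodes the main metallothionein of most human tissues, was the most abundant member by far and differed little between libraries. In the hg19 coordinates of the files it lies on chromosome 16 from 56642478 to 56643409 (NCBI Gene ID 4502). After 24 h its level was 1390.74 FPKM with DMSO, 1332.03 with 100 nM and 1472.68 with 200 nM. After 48 h the levels were 1386.90 with DMSO, 1506.70 with 100 nM and 1351.56 with 200 nM. The highest level was 1.13 times the lowest, and the doses stood in the opposite order at the 2 times. By mean FPKM it ranked 17 among the 16623 genes.

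MT1E (NCBI Gene ID 4493, chromosome 16 from 56659585 to 56661024) was the next in level. After 24 h its FPKM was 197.27 with DMSO, 192.75 with 100 nM and 162.34 with 200 nM. The levels after 48 h were 185.04, 179.44 and 186.89 in the same order. The library of 200 nM 24 h was the lowest, with a log2 ratio of -0.28 to DMSO 24 h, and the ratios in the other comparisons with DMSO lay between -0.04 and 0.01.

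MT1X (NCBI Gene ID 4501, chromosome 16 from 56716382 to 56718108) had the widest range of the abundant members. After 24 h its level was 50.95 FPKM with DMSO, 69.10 with 100 nM and 120.89 with 200 nM. After 48 h the levels were 128.87 with DMSO, 113.10 with 100 nM and 157.80 with 200 nM. The DMSO and 100 nM libraries of 24 h were low, and the remaining 4 lay at 113.10 or above. On a transcript of 450 bases these levels correspond to about 411 fragments in the lowest library and 1112 in the highest. Their 95% Poisson intervals after 24 h ran from 46.1 to 56.1 FPKM with DMSO, from 63.5 to 75.2 with 100 nM and from 113 to 129 with 200 nM. Those after 48 h ran from 121 to 137 with DMSO, from 106 to 121 with 100 nM and from 149 to 167 with 200 nM. These intervals rest on the inferred depth and cover counting error only, not the difference between cultures.

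**Figure D1:**
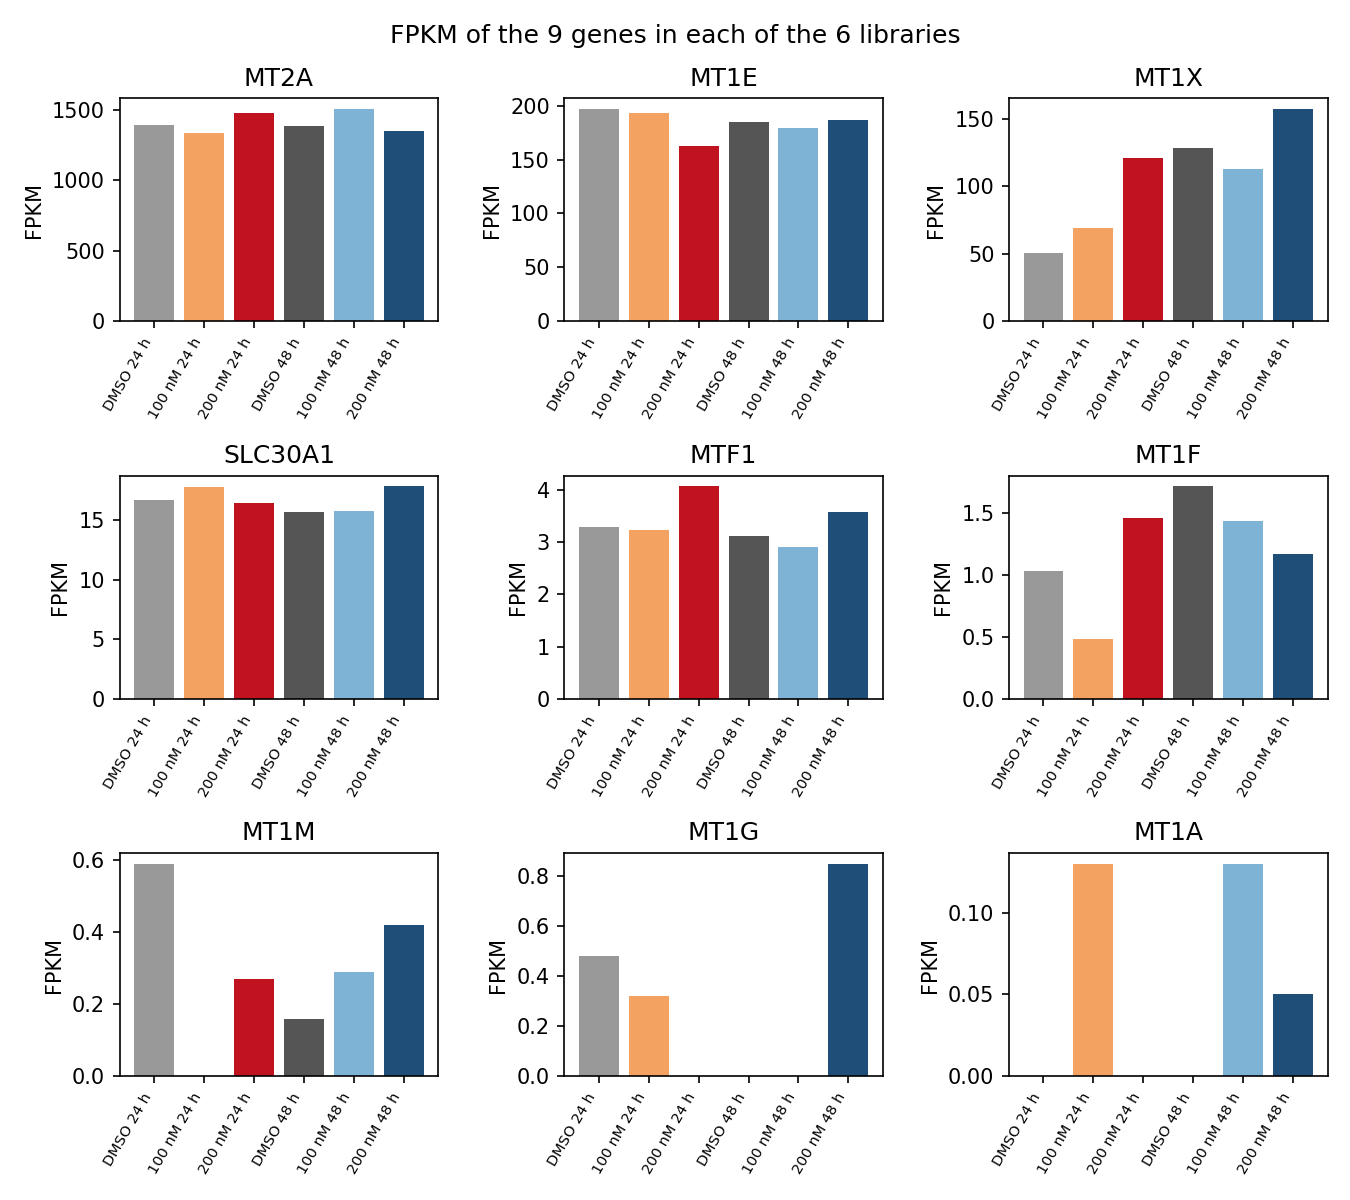
FPKM of each of the 9 genes (linear axes from 0, 1 panel per gene in order of mean level) in the 6 libraries, 1 bar per library, with no error bars because each condition has 1 library. MT2A and MT1E are nearly level, MT1X goes from 50.95 in DMSO 24 h to 157.80 at 200 nM 48 h, and MT1M, MT1G and MT1A stay below 1.

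The other 4 metallothioneins were scarce. MT1F (NCBI Gene ID 4494) had 1.03 FPKM with DMSO, 0.48 with 100 nM and 1.46 with 200 nM after 24 h, and 1.72, 1.44 and 1.17 in that order after 48 h. MT1M (NCBI Gene ID 4499) had 0.59, 0 and 0.27 after 24 h, then 0.16, 0.29 and 0.42 after 48 h. For MT1G (NCBI Gene ID 4495), the levels were 0.48, 0.32 and 0 after 24 h, then 0, 0 and 0.85 after 48 h. MT1A (NCBI Gene ID 4489) did not exceed 0.13 and was listed at 0 in 3 libraries. With the GENCODE lengths, which may not be those the authors used, these levels correspond to between 6 and 21 fragments for MT1F, at most 9 for MT1M, at most 5 for MT1G and at most 1 for MT1A. MT1A was thus below the level of 3 fragments in every library, and the values of the other 3 rest on few fragments. Of the 13 other metallothionein symbols looked up, 3 were found (MT1B, MT1H and MT3), and their levels did not exceed 0.85, 0.31 and 0.10 FPKM.

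MTF1, the metal-sensing activator of the family, was expressed at a low level and moved less than 2-fold. After 24 h its FPKM was 3.29 with DMSO, 3.24 with 100 nM and 4.08 with 200 nM, and after 48 h it was 3.13, 2.91 and 3.58 in the same order (NCBI Gene ID 4520, chromosome 1 from 38275239 to 38325292). The 200 nM library was the highest at both times. The zinc exporter gene SLC30A1 (NCBI Gene ID 7779, chromosome 1 from 211748381 to 211752099) had 16.69, 17.81 and 16.42 FPKM after 24 h, then 15.65, 15.75 and 17.86 after 48 h. Its highest level was 1.14 times its lowest. The order of levels was MT2A, MT1E, MT1X, SLC30A1, MTF1 and MT1F, and the ranges over the 6 libraries of neighbours in this order did not overlap, although the lowest MT1E (162.34) and the highest MT1X (157.80) were close. The ranges of MT1M, MT1G and MT1A overlapped each other, and those of MT1M and MT1G overlapped that of MT1F.

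At 100 nM 24 h, 0 of the 6 members with sufficient expression were called, against 1.48% of the 11475 genes tested. The log2 ratio to DMSO 24 h was 0.43 for MT1X, -0.06 for MT2A, -0.03 for MT1E, -0.02 for MTF1, 0.09 for SLC30A1 and -0.46 for MT1F. The median of the 6 was -0.03, beside 0.01 for all genes tested. From the inferred fragments, the MT1X ratio without pseudocount was 0.44, with an interval from 0.25 to 0.63 for counting error.

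At 200 nM 24 h, 1 of 6 members was called, MT1X, which was higher. Of the 11660 genes tested, 5.96% were called in either direction and 4.49% higher. The log2 ratio of MT1X was 1.23, its level being 2.37 times that of DMSO 24 h, and 97.6% of the genes tested had a smaller ratio. The interval for counting error ran from 1.08 to 1.42. The ratio was 0.08 for MT2A, -0.28 for MT1E, 0.24 for MTF1, -0.02 for SLC30A1 and 0.28 for MT1F, and the median of the 6 was 0.16 beside 0.01 for all genes tested. Against DMSO 48 h in place of DMSO 24 h, the MT1X ratio was -0.09.

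At 48 h no member was called. At 100 nM, 0 of 6 were called against 0.469% of 11514 genes, and at 200 nM, 0 of 6 against 0.266% of 11665. The log2 ratio of MT1X to DMSO 48 h was -0.19 at 100 nM and 0.29 at 200 nM, with intervals for counting error from -0.32 to -0.06 and from 0.17 to 0.42. MT2A had ratios of 0.12 and -0.04, MT1E of -0.04 and 0.01, MTF1 of -0.08 and 0.15, SLC30A1 of 0.01 and 0.18, and MT1F of -0.16 and -0.33 in the same order. The median of the 6 members was -0.06 at 100 nM and 0.08 at 200 nM, beside -0.01 and 0.01 for all genes tested.

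The 2 DMSO libraries differ by label in time only. MT1X differed between them at least as much as in any comparison of PCI-24781 with DMSO of the same time. The largest of those was 1.23 at 200 nM 24 h, and its interval for counting error overlaps the one given here. Of 6 members, 1 was called, MT1X, which was higher at 48 h, against 2.62% of 11490 genes in either direction and 2.49% higher. Its log2 ratio was 1.32 and its level in DMSO 48 h was 2.53 times that in DMSO 24 h, with an interval for counting error from 1.17 to 1.51. In the same comparison MT2A had -0.00, MT1E -0.09, MTF1 -0.05, SLC30A1 -0.09 and the scarce MT1F 0.42. DMSO 24 h is the reference of this comparison and of both doses at 24 h, so an error in that library enters all 3. DMSO 48 h likewise enters both doses at 48 h, and with 1 library per condition the labels of the libraries could not be checked. Time in culture and a property of that library cannot be told apart.

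**Figure D2:**
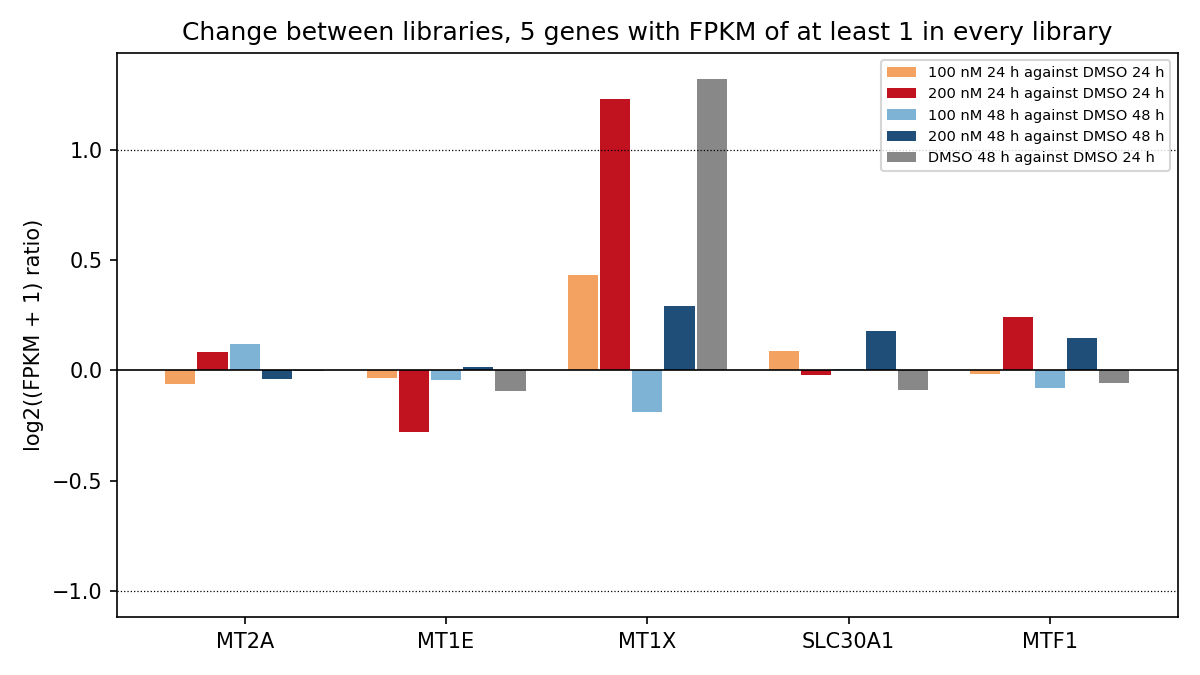
Log2((FPKM + 1) ratio) of the 5 members with at least 1 FPKM in every library, 1 bar for each of the 4 comparisons with DMSO of the same time and for DMSO 48 h against DMSO 24 h, with dotted lines at 2-fold and no error bars. MT1X passes 2-fold at 200 nM 24 h (1.23) and between the DMSO libraries (1.32), and the bars of the other 4 genes lie between -0.28 and 0.24.

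Between the doses, MT1X was higher at 200 nM than at 100 nM at both times. The log2 ratio was 0.80 at 24 h, from 0.65 to 0.96 for counting error, and 0.48 at 48 h, from 0.35 to 0.61. MTF1 had 0.26 and 0.23 in the same comparisons, while MT2A had 0.14 and -0.16. From 24 h to 48 h, MT1X had a ratio of 0.70 at 100 nM and 0.38 at 200 nM. These comparisons share libraries with those above.

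The sum over the 7 metallothioneins, which depends less on how fragments were divided among them, was nearly level. After 24 h it was 1641.06 FPKM with DMSO, 1594.81 with 100 nM and 1757.64 with 200 nM, and after 48 h it was 1702.69, 1801.10 and 1698.74 in the same order. Its log2 ratio to DMSO after 24 h was -0.04 with 100 nM and 0.10 with 200 nM, and after 48 h it was 0.08 and -0.00. The sum made up between 0.379% and 0.423% of all FPKM in a library. MT2A contributed from 79.6% of it at 200 nM 48 h to 84.7% in DMSO 24 h. Without MT2A the sum was less level, from 250.32 FPKM in DMSO 24 h to 347.18 at 200 nM 48 h. The share of MT1X after 24 h was 3.10% with DMSO, 4.33% with 100 nM and 6.88% with 200 nM, and after 48 h it was 7.57%, 6.28% and 9.29% in the same order. MT1X and MT1E, both of subclass 1, stood at a ratio of 0.258 in the DMSO library of 24 h, the lowest, and of 0.844 in the 200 nM library of 48 h, the highest.

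**Figure D3:**
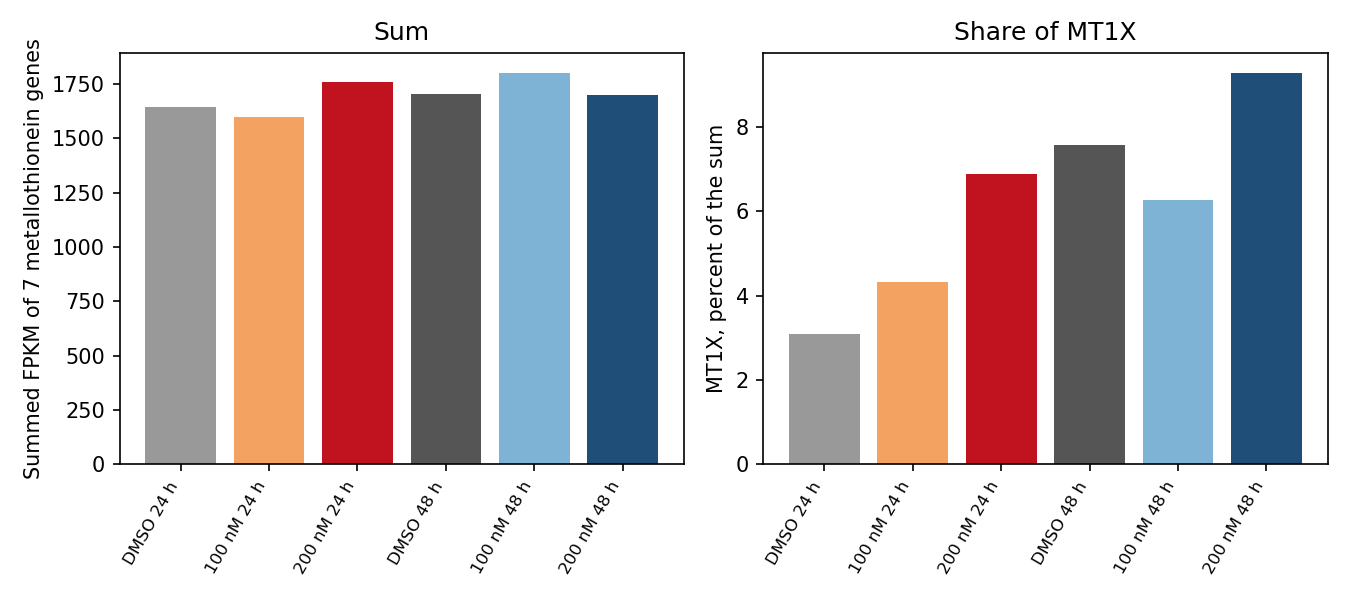
Left, summed FPKM of the 7 metallothionein genes in each library; right, the percent of that sum from MT1X; both axes start at 0 and each bar is 1 library. The sum stays between 1594.81 and 1801.10, and the share of MT1X goes from 3.10% in DMSO 24 h to 9.29% at 200 nM 48 h.

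The metallothionein genes lie side by side on chromosome 16, and the 10 listed in the files span 94.8 kb. Within 500 kb of them the files list 12 other genes, of which 9 had at least 1 FPKM in any library. None of the 12 was called in any of the 4 comparisons with DMSO or between the DMSO libraries. Of all genes tested, 5.96% were called at 200 nM 24 h and 2.62% between the DMSO libraries. At such shares, 0 calls among so few genes says little about the neighbourhood. At 200 nM 24 h the log2 ratios of those 9 lay between -0.55 and 0.30, and between the DMSO libraries between -0.41 and 0.61. The neighbour nearest to MT1X, the nuclear pore gene NUP93, had 24.53, 27.46 and 30.39 FPKM at 24 h and 23.34, 20.57 and 21.37 at 48 h for DMSO, 100 nM and 200 nM. HERPUD1, a gene of the endoplasmic reticulum stress response, had 13.27, 14.51 and 12.09 after 24 h, then 20.78, 18.77 and 21.86 after 48 h. MT1X had a larger ratio than each of the 9 expressed neighbours at 200 nM 24 h and between the DMSO libraries. In these comparisons it also had a larger ratio than 97.6% and 99.0% of all genes tested, so this is not particular to the locus.

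**Figure D4:**
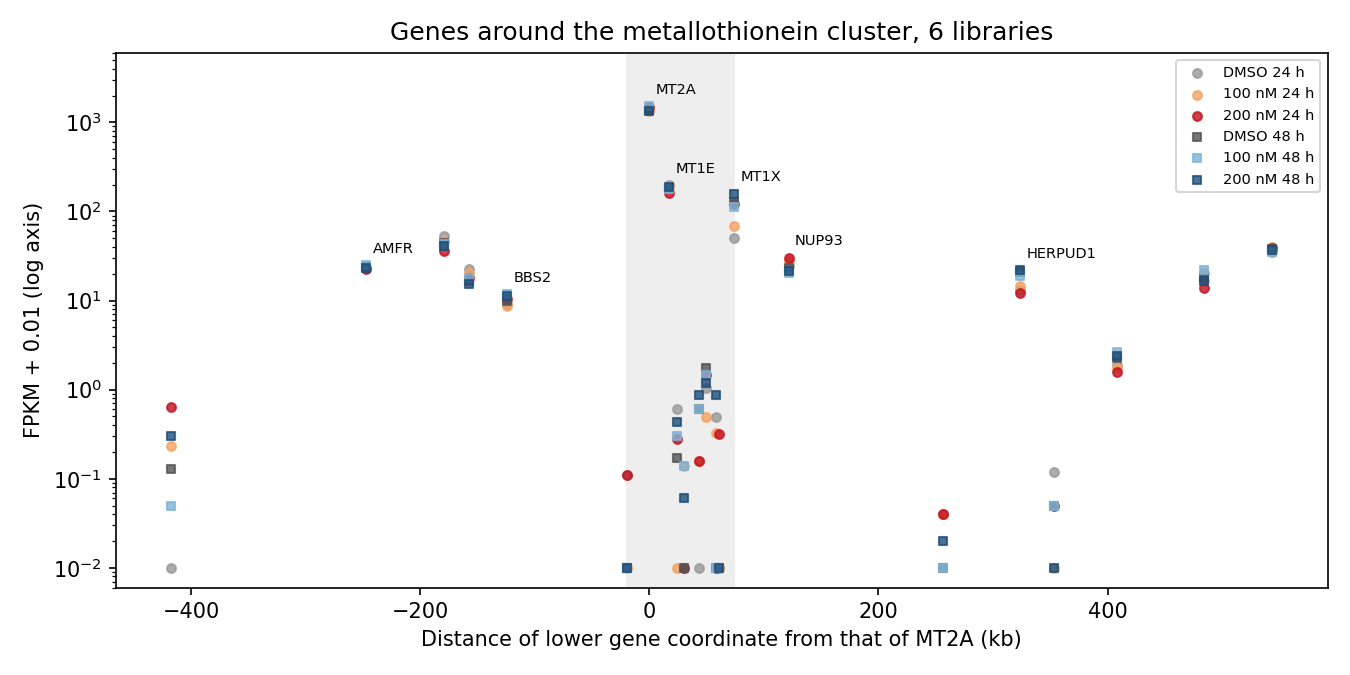
FPKM + 0.01 on a log axis against the distance in kb of each gene's lower coordinate from that of MT2A, with 1 point per library and the span of metallothionein starts shaded. Within the cluster MT2A, MT1E and MT1X lie above 50 FPKM and the other members below 2, and the neighbours outside show no 2-fold difference that was called.

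Other genes of zinc transport were taken from lists of the ZnT and ZIP families. Of the 9 other exporters found, between 5 and 6 had sufficient expression, and 0 were called in each of the 4 comparisons. The largest ratios were those of SLC30A3, which loads zinc into vesicles, with 0.65 at 200 nM 24 h (1.45 against 0.56 FPKM), and of the secretory pathway transporter SLC30A5, with -0.53 (14.75 against 21.69). Of the 13 importers found, 11 had sufficient expression and 0 were called. Of all genes tested, 1.48% were called at 100 nM 24 h and 5.96% at 200 nM 24 h. The shares at 48 h were 0.469% and 0.266%. At such shares, 0 calls among so few genes says little about zinc transporters. SLC39A4, a plasma membrane importer, had 32.49, 26.75 and 20.05 FPKM at 24 h and 31.96, 36.94 and 24.28 at 48 h for DMSO, 100 nM and 200 nM. SLC39A3 had 21.77, 27.50 and 34.91 after 24 h, then 21.54, 18.96 and 22.02 after 48 h. The log2 ratios at 200 nM 24 h were -0.67 for SLC39A4 and 0.66 for SLC39A3. The median over the importers was 0.08 at 200 nM 24 h, beside 0.01 for all genes tested.

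**Figure D5:**
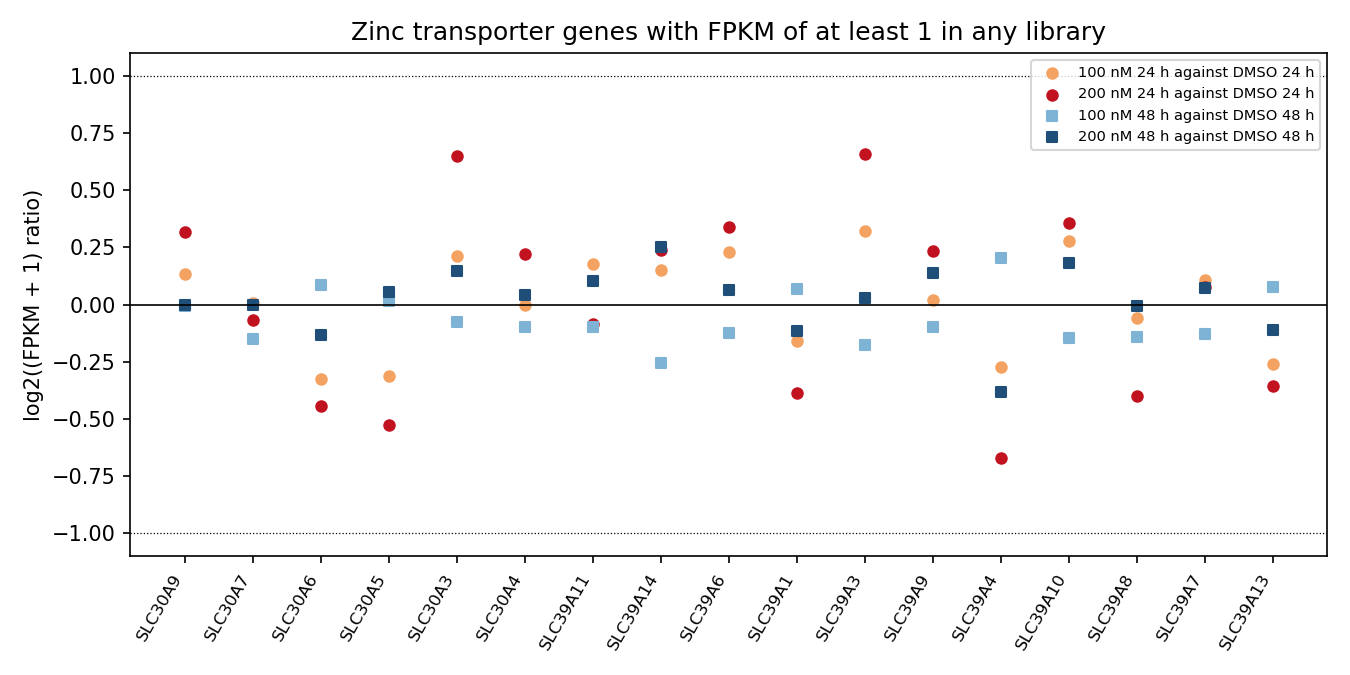
Log2((FPKM + 1) ratio) to DMSO of the same time for the zinc exporter and importer genes other than SLC30A1 with at least 1 FPKM in any library; circles are 24 h, squares 48 h, and dotted lines mark 2-fold. No point reaches a dotted line, and the widest are SLC39A4 (-0.67) and SLC39A3 (0.66) at 200 nM 24 h.

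Of 15 copper handling genes, 1 was called, lower, at 200 nM 24 h, near the 5.96% of all genes tested there, and 0 in the other comparisons with DMSO. It was SCO2, which helps deliver copper to cytochrome c oxidase, with 4.08 FPKM in DMSO 24 h and 1.49 at 200 nM. Of 10 genes known to respond to cadmium or oxidative stress, 9 had sufficient expression and 2 were called, both higher at 200 nM 24 h, where 4.49% of all genes tested were higher. They were SRXN1, a target of NRF2, with 35.57, 46.12 and 91.92 FPKM at 24 h for DMSO, 100 nM and 200 nM, and the heme oxygenase gene HMOX1 with 4.83, 5.31 and 10.88. At 48 h, SRXN1 had 36.41, 27.75 and 54.85 and HMOX1 had 10.36, 8.86 and 10.06. HMOX1, like MT1X, was lowest in the DMSO and 100 nM libraries of 24 h and higher in the other 4 libraries. At 200 nM 24 h, 8 of the 9 genes of this list had a log2 ratio above 0 and 1 below, with a median of 0.33 beside 0.01 for all genes tested. Between the DMSO libraries, 0 of 9 genes of this list were called, beside 2.62% of all genes tested. Their log2 ratios were above 0 for 4 and below 0 for 5, with a median of -0.13.

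Of 10 genes for the glucocorticoid receptor and its targets, 9 had sufficient expression at 200 nM 24 h and 2 were called, both higher, beside the same 4.49%. They were DUSP1, a MAP kinase phosphatase, with 21.99, 27.69 and 47.68 FPKM at 24 h and 29.93, 24.30 and 37.10 at 48 h, and ERRFI1, an inhibitor of EGFR, with 78.79, 94.78 and 187.13 after 24 h, then 170.77, 177.43 and 242.46 after 48 h. The median of the list was 0.37 at 200 nM 24 h, beside 0.01 for all genes tested, with 7 of the 9 ratios above 0 and 2 below. No gene of the list was called in the other 3 comparisons with DMSO. Between the DMSO libraries, 2 of 9, ERRFI1 and KLF9, were called higher at 48 h, with log2 ratios of 1.11 and 1.32, where 2.49% of all genes tested were higher. The median of the list was 0.63 there, beside -0.00 for all genes tested, with 7 of the 9 ratios above 0 and 2 below. Of the 9 markers of other cell types, 6 had sufficient expression at 200 nM 24 h. Of these, 2 were called higher, COL1A1 and PDGFRB, where 4.49% of all genes tested were higher. Their log2 ratios were 1.53 and 1.45, at low levels (6.68 against 1.66 FPKM and 2.66 against 0.34). The sum of those 9 markers, of which CD68 made up most, after 24 h was 123.82 FPKM with DMSO and 86.26 with 200 nM, and ranged from 83.3 to 133 over the 6 libraries. The smooth muscle actin gene ACTA2 had a ratio of 0.88 at 200 nM 24 h. CD68 went the other way, with a ratio of -0.74 at 200 nM 24 h (70.77 against 118.95 FPKM) and of -0.43 between the DMSO libraries. The endothelial marker PECAM1 had 0.38, 0.64 and 1.25 FPKM after 24 h, then 1.52, 1.07 and 2.33 after 48 h, the same order of libraries as MT1X, with a ratio of 0.71 at 200 nM 24 h and of 0.87 between the DMSO libraries. The leukocyte marker PTPRC lay between 0.76 and 1.01 FPKM, DCN did not exceed 0.07, and the endothelial VWF and the T cell marker CD3E did not exceed 0.04. The part of these markers in the MT1X result was not tested.

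The profile over the 6 libraries was compared with those of the 8587 genes with a mean of at least 5 FPKM, by Pearson correlation of log2(FPKM + 1). The summed metallothioneins were most like KCTD13 (0.990), RETREG3 (0.989), ANKRD27 (0.985), PLEKHM1 (0.981) and ARRDC3 (0.980). Their sum had a range of only 0.18 on the log2 scale, and 25 genes had a correlation above 0.95 with it. MT1X, taken up after its values were seen, was most like FBXW8 (0.997), OPN3 (0.992), HILPDA (0.991), ACSL3 (0.991) and COXFA4L3 (0.991). Of these, COXFA4L3 had a range of 1.90 on the log2 scale, close to the 1.61 of MT1X, and FBXW8 one of only 0.19. With 6 points and shared libraries, 100 genes had a correlation above 0.95 with MT1X. Among the abundant members, the correlation with MT1X was 0.22 for MT2A and -0.56 for MT1E, and that of MT2A with MT1E was -0.69. These values rest on small ranges of MT2A and MT1E, 0.18 and 0.28 on the log2 scale.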

How the data were processed

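RNA-seq was performed on MDA-MB-231 cells with 1 library for each of 6 conditions. The authors deposited FPKM per gene, rounded to 2 decimals. Bowtie2, RSEM and the build hg19 are named in the submitters' processing notes, without versions. A gene filter is not given in the sources used here. RSEM can divide fragments among similar copies, which bears on metallothioneins.

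Gene symbols were taken by NCBI Gene ID from RefSeq (GRCh38.p14), which held 16585 of 16623 genes. Log2(FPKM + 1) was compared between libraries across all genes, and calls used 2-fold and an FPKM of at least 1. No p-value was calculated. The members and lists were chosen with earlier results of these data known. Named were all members, other metallothioneins, called genes of each list or its 2 largest changes, called neighbours within 500 kb and the 5 most similar profiles to the sum. The neighbours NUP93 and HERPUD1, the markers of other cell types that were not called, and the profiles like MT1X were picked after their values were seen. The comparison of HMOX1 with MT1X was also made after their values were seen. Depth was inferred with GENCODE release 29 transcript lengths from 236 to 274 genes per library. Upstream sequences of chromosome 8 were left out of the motif search. Calls were tested on simulated data with the same transcript length for all genes, counting error only and changes larger than the threshold. Differences between cultures and fragments shared among copies were not simulated, so that test does not bear on them. Alternatives were pseudocounts, TPM, median-of-ratios, other DMSO references, thresholds and filters. Python 3.11.15, numpy 2.4.6, pandas 2.3.3, scipy 1.17.1 and matplotlib 3.10.9 were used.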

Additional observations from a re-analysis of the deposited data

Results flagged for a closer look

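The log2 ratio of MT1X to DMSO of the same time was 0.43 at 100 nM 24 h and -0.19 at 100 nM 48 h. The pair stood out because the same dose went in opposite directions at the 2 times, among members with at least 1 FPKM in every library and ratios of at least 0.1 in size. Both signs depend on the DMSO library: against the mean of both DMSO libraries the ratios were -0.38 and 0.33, and against the DMSO library of the other time -0.89 and 1.14. The difference between the times was not tested, since each condition has 1 library.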

How the results depend on the processing

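No paired analysis was possible because there is 1 library per condition. Against the mean of the 2 DMSO libraries, 0 members were called higher at 200 nM 24 h in place of 1, and against the DMSO library of the other time 0 as well. With the other DMSO library MT1X had a log2 ratio of -0.091 at 200 nM 24 h, and at 48 h it was called higher at both doses (1 member each, log2 ratios 1.14 and 1.61). The choice of DMSO library thus decided the calls of MT1X. With TPM, 1 member was called lower with 100 nM after 24 h (MT1M), 1 lower with 200 nM (MT1G) and 1 higher at 200 nM 48 h (MT1G), and with a pseudocount of 0.01, 1 was called lower at 100 nM 24 h (MT1F). The levels behind these 4 calls were between 0 and 1.03 FPKM. Without MT2A, the summed ratio with 100 nM was 0.070 after 24 h and -0.10 after 48 h. With 200 nM the summed ratio without MT2A was 0.19 after 24 h and 0.14 after 48 h. The summed ratio of -0.00 at 200 nM 48 h was 0.02 with TPM. The 1.5-fold threshold, no filter, FPKM of at least 1 in both libraries, median-of-ratios factors and a pseudocount of 0.1 left the counts of called members as they were. For the 5 members with at least 1 FPKM in every library, TPM and median-of-ratios factors each changed the sign of 0 of 20 ratios. A pseudocount added to both libraries cannot change a sign. The other DMSO library changed the sign of 8 of 20 and the mean of both DMSO libraries that of 7 of 20. With these references only the ratios of MT1X shifted by more than 0.1. The other sign changes were in small ratios, such as that of MTF1 at 100 nM 24 h (-0.017, and 0.038 with the other DMSO library). A shift over 0.1 on the log2 scale, or over 1.5 times for a count, was taken as a change.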
